A study of Mus musculus with 24 samples.

Results

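The 48 genes described here encode parts of the motile cilium, and they were taken by symbol from the 45706 genes of a bulk RNAseq table of the mouse main olfactory epithelium (MOE). A gene was included if its symbol was Foxj1 or Mcidas, or began with Dnah, Dnai, Dnal, Dnaaf, Rsph, Tekt or Drc followed by a number or by a letter and a number. The rule used symbols alone, but it was set with earlier results of these data known. By family there were 16 Dnah genes (the antisense gene Dnah2os among them), 7 Dnai and Dnal genes, 7 Dnaaf genes, 8 Rsph genes, 5 Tekt genes, 3 Drc genes and the 2 regulators. The MOE of 24 untreated mice was measured, with 3 WT and 3 iRhom2-/- mice at each of 5, 8, 10 and 30 weeks of age. All mice were of mixed strain background. The study's methods give 129Sv with C57BL/6 for the iRhom2-/- mice and do not state the strains of WT mice. The iRhom2-/- mice carried a knockout allele of Rhbdf2, the gene of iRhom2, in which LacZ is expressed from the endogenous promoter, and WT mice did not. Both nares of each mouse gave 1 polyA-selected library of the whole epithelium. The mice of 5 and 30 weeks were all male, those of 8 weeks were male except WT mouse 3, and those of 10 weeks were male except mouse 3 of each genotype. The columns of the mice of 5 and 30 weeks, numbered 7 to 12 in each genotype, carry no age, so they were used as 1 group of 6 libraries per genotype (5 or 30 weeks). The core reference number in the labels differs between the mice of 8 weeks, those of 10 weeks and those of 5 and 30 weeks. Differences between these age groups thus cannot be told apart from differences between core reference numbers. The design asks whether loss of iRhom2 changes gene expression in the MOE, and here also how much transcript of respiratory, motile-ciliated tissue each dissection held.

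Motile cilia beat because dynein arms slide the microtubule doublets of the axoneme along one another. Outer and inner arms are built from heavy chains (Dnah), intermediate chains (Dnai) and light chains (Dnal), and they are put together in the cytoplasm by the assembly factors (Dnaaf). Radial spokes (Rsph) and the nexin-dynein regulatory complex (Drc) control the arms, tektins (Tekt) are filaments inside the doublets, and Foxj1 and Mcidas switch on the transcription of these genes. In the nose, multiciliated cells of the respiratory epithelium carry such cilia next to the MOE. The cilia of olfactory sensory neurons (OSNs) have an axoneme too, but they are sensory and lack dynein arms.

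RFX transcription factors bind the X-box, a pair of inverted arms, in the promoters of many ciliary genes. Promoters of 300 bases (250 before to 50 after the start, RefSeq, GRCm38.p6) were given for 40 of the 48 genes, and none was given for Foxj1, Dnah3, Rsph1, Rsph4a, Rsph10b, Dnai4, Dnaaf1 and Dnah2os. Both strands were searched. The arm GTTGCC stood in 16 of the 40 promoters (40.0%) and in 14.1% of all 27025 promoters, counted by gene here and below. The arm GTTGCT, searched after these promoters had been seen, stood in 28 (70%) and in 16.7% of all promoters. Any arm was present in 31 (77.5%) and in 27.9% of all promoters, and 2 facing arms at most 3 bases apart were present in 8 (20.0%) and in 0.466%. Both of these searches include GTTGCT, so they too were set after these promoters had been seen. The near-identical copies Dnah7a, Dnah7b and Dnah7c are among the 8. The full X-box pair was found in Dnaaf6 and Dnaaf6b alone among these genes (5.0%, and 0.644% of all promoters), and the forkhead letters TGTTTAC in Dnah17 and Tekt3 alone (5.0%, and 4.05%). The windows below are shown for the Dnah7 copies, Dnai2 and Tekt2, as examples of facing arms, and for 4 genes whose levels the results turn on. Arms are in capitals, each window is on the strand of its gene, and the letters are a description of the window, not a measured binding site.
Dnah7a (chr1:53706817-53706846, minus strand): agtttGTTGCTtAGCAACgaatcgaccacg
Dnah7b (chr1:46066824-46066853, plus strand): agtttGTTGCTtAGCAACgaatcgaccttg
Dnah7c (chr1:46425444-46425473, plus strand): agtttGTTGCTtAGCAACgaatcgaccaca
Dnai2 (chr11:114727381-114727410, plus strand): ccaggGTTGCTaGGCAACtggtaaactccg
Tekt2 (chr4:126325693-126325722, minus strand): gggcgGTTGCTcGGCAACcagagccgcaaa
Dnah5 (chr15:28203646-28203675, plus strand): ttgctttctcttGTTGCTaaacatgattaa
Dnal4 (chr15:79774427-79774456, minus strand): acttccgtgatgGTTGCTaagacactctgg
Drc1 (chr5:30281387-30281416, plus strand): CggcttgttcctAGCAACccggctgctggt
Drc3 (chr11:60353373-60353402, plus strand): gtttggttccccAGCAACcaaacgaagcgt

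The libraries held 25333822 to 48660394 counts on genes. Levels are given as CPM, counts scaled to a common library size, after TMM normalization. Rhbdf2, the targeted gene, ranged from 19.3 to 24.9 CPM in the 12 WT libraries and from 7.19 to 13.4 CPM in the 12 iRhom2-/- libraries, which did not overlap. Its log2 fold change over all ages was -1.08 (quasi-likelihood test of edgeR, adjusted p = 9.8e-08). Omp, the marker of mature OSNs, was between 3691 and 8333 CPM in every library, in keeping with the olfactory tissue of the labels. Of 5 sperm genes, Tnp1 and Akap4 had 0 counts in every library, and Prm1, Prm2 and Odf1 had at most 4 counts in any library, so sperm transcripts were at the limit of detection. Since these are bulk samples, fewer ciliated cells and less RNA per ciliated cell cannot be told apart.

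Of the 48 genes, 45 passed the filter on low counts and were tested among 20763 genes. Dnaaf6 and Dnah14 had 0 counts in all libraries, and Rsph6a, a radial spoke gene, had 0 to 7 counts. Together the 48 genes made up 1099 ± 141 CPM (SD, n = 24 libraries), with 827 CPM in the lowest library and 1463 CPM in the highest. The genes of the spokes held the largest share of that sum (28.0%, 23.8 to 34.3% across libraries), the Dnai and Dnal chains 18.6%, the Dnah heavy chains 15.8% and the Drc genes 13.8%. The heavy chain share had the widest range, from 8.99 to 24.8%. Per kilobase of exon, the spoke head gene Rsph1 was highest (mean over libraries 56.7 CPM per kb), followed by Foxj1 (50.1), the spoke head gene Rsph9 (40.4), Drc1 of the nexin-dynein regulatory complex (24.02), Tekt1 (22.6) and the light chain Dnal4 (18.9). The highest heavy chains were far lower on the same scale, with 2.64 CPM per kb for Dnah11, 2.11 for Dnah5 and 1.84 for Dnah9, all outer arm chains. The inner arm chain Dnah6 was at 1.13 CPM per kb.

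The genes of the motile cilium varied to very different extents across these libraries. Bulk samples do not show which cells their transcripts came from. Among the 39 genes with a mean over 2 CPM, the ratio of the highest to the lowest library ranged from 1.52 to 22.8, with a median of 2.54. Of these, 9 wide-ranging genes varied over 5-fold and 10 steady genes under 2-fold. Both sets were chosen after their values were seen, so they are a description with no test. The 9 wide-ranging genes were the outer arm heavy chains Dnah5 (14.2-fold) and Dnah9 (5.22-fold), the inner arm heavy chains Dnah1 (8.41-fold), Dnah3 (22.8-fold), Dnah6 (16.5-fold), Dnah10 (6.98-fold) and Dnah12 (14.5-fold), the assembly factor Dnaaf3 (7.25-fold) and the spoke gene Rsph10b (7.50-fold). The 10 steady genes were Dnal1, Dnal4, Drc1, Drc3, Dnaaf2, Dnaaf5, Rsph3a, Rsph3b, Rsph14 and Dnah7a (1.52- to 1.91-fold). By family, the median ratio was 5.22 for Dnah genes and 1.66 for Drc genes. A promoter was given for 7 of the wide-ranging genes, of which 5 held an arm of the X-box, and for all 10 steady genes, of which 10 held one.

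**Figure D1:**
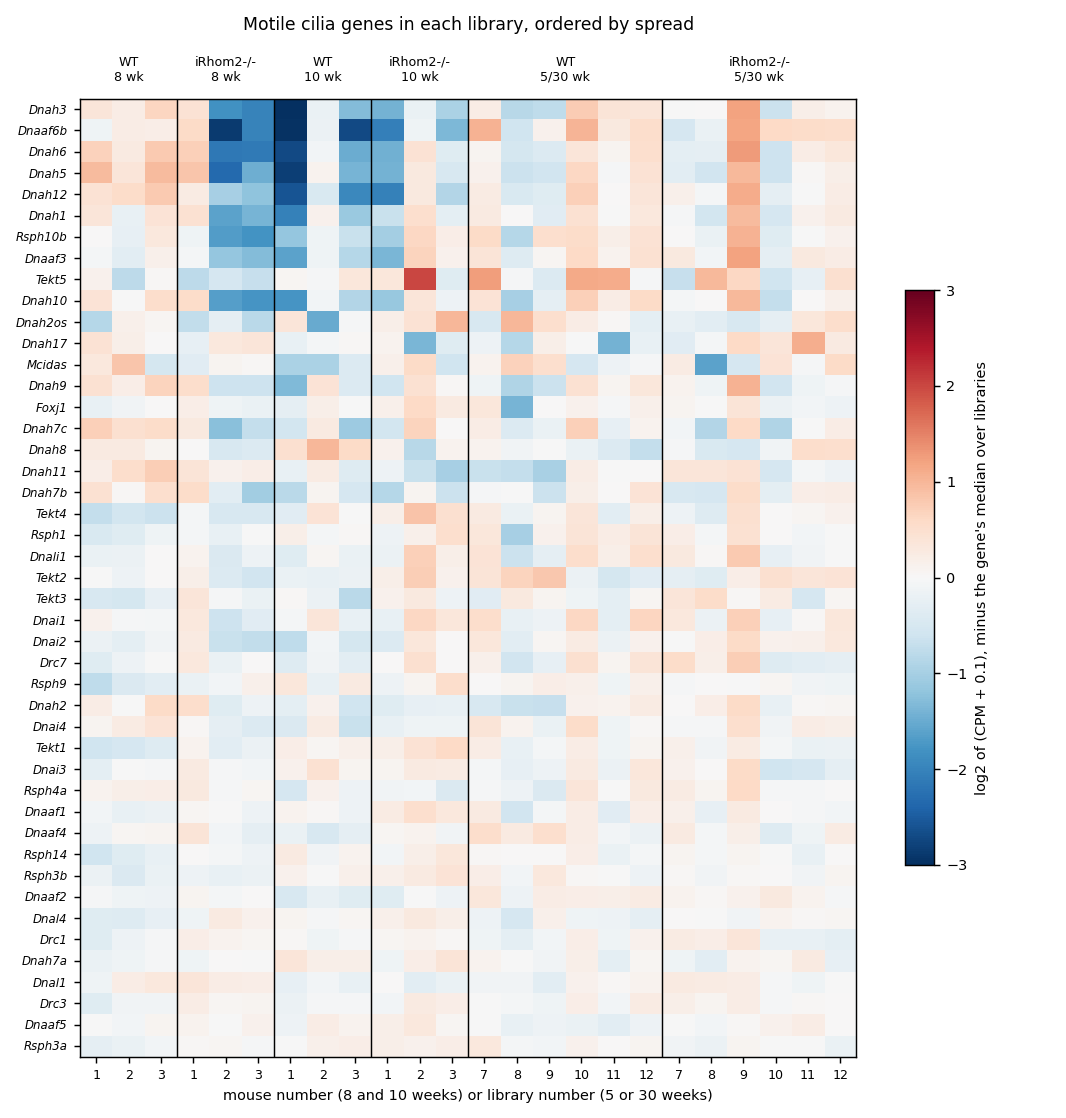
Each row is 1 of the 45 motile cilia genes tested and each column 1 of the 24 libraries, grouped by genotype and age. Colour gives log2 of (CPM + 0.1) minus the median of the gene over libraries, from blue (lower) to red (higher). Heavy chain genes at the top are blue in the same few libraries of 8 and 10 weeks in both genotypes, and red in iRhom2-/- library 9.

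The wide-ranging genes sorted the libraries, and they did so across genotypes. As a summary per library, the geometric mean of each gene's ratio to its median library was taken over the set. Over the 9 wide-ranging genes it ran from 0.225 to 2.13 (9.49-fold), and over the 10 steady genes from 0.841 to 1.11 (1.32-fold). That contrast follows from the choice of both sets by their range. In all, 5 libraries lay under 0.5 for the wide-ranging genes, namely WT mouse 1 (0.225) and WT mouse 3 (0.459) of 10 weeks, iRhom2-/- mouse 2 (0.337) and iRhom2-/- mouse 3 (0.346) of 8 weeks, and iRhom2-/- mouse 1 of 10 weeks (0.423). In each of these 5 libraries, which were picked by these same genes, 9 of the 9 were below their own median library, as that choice largely sets. The 14 respiratory ciliated cell markers, none of them one of the 48 genes, were below theirs for 10 to 12 of 14 genes in the same libraries. The respiratory secretory markers were below for 4 to 8 of 10 genes, and the mature OSN markers for 1 of 10 genes. By the same summary, the 5 libraries held ranks 20 to 24 of 24 for the OSN markers (1.12 to 1.25), where 24 is the highest.

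Over all 24 libraries the same summary ran from 0.308 to 1.56 for the ciliated markers, from 0.331 to 1.94 for the 9 secretory markers tested, from 0.675 to 1.25 for the OSN markers and from 0.710 to 1.43 for the sustentacular markers. The summed level of the ciliated markers was 346 to 431 CPM in WT and 320 to 483 CPM in iRhom2-/- mice of 8 weeks, and 338 to 455 and 353 to 695 CPM at 10 weeks. At 5 or 30 weeks it was 430 to 620 CPM in WT and 387 to 652 CPM in iRhom2-/- libraries, so the genotypes overlapped at every age. Bpifa1, a secreted protein of respiratory and glandular epithelium, ranged more widely, from 679 CPM in iRhom2-/- mouse 2 of 8 weeks to 18802 CPM in iRhom2-/- library 9. Other secretory markers ran otherwise, since Muc5b (1166 CPM) and Agr2 (396 CPM) were highest in WT mouse 1 of 10 weeks, the library lowest for the wide-ranging cilia genes. Reg3g, a secreted antimicrobial lectin, ranged from 87.4 to 859 CPM. Whether the amount of respiratory tissue in a dissection sets the level of the wide-ranging genes was not tested, since no independent measure of it was at hand.

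**Figure D2:**
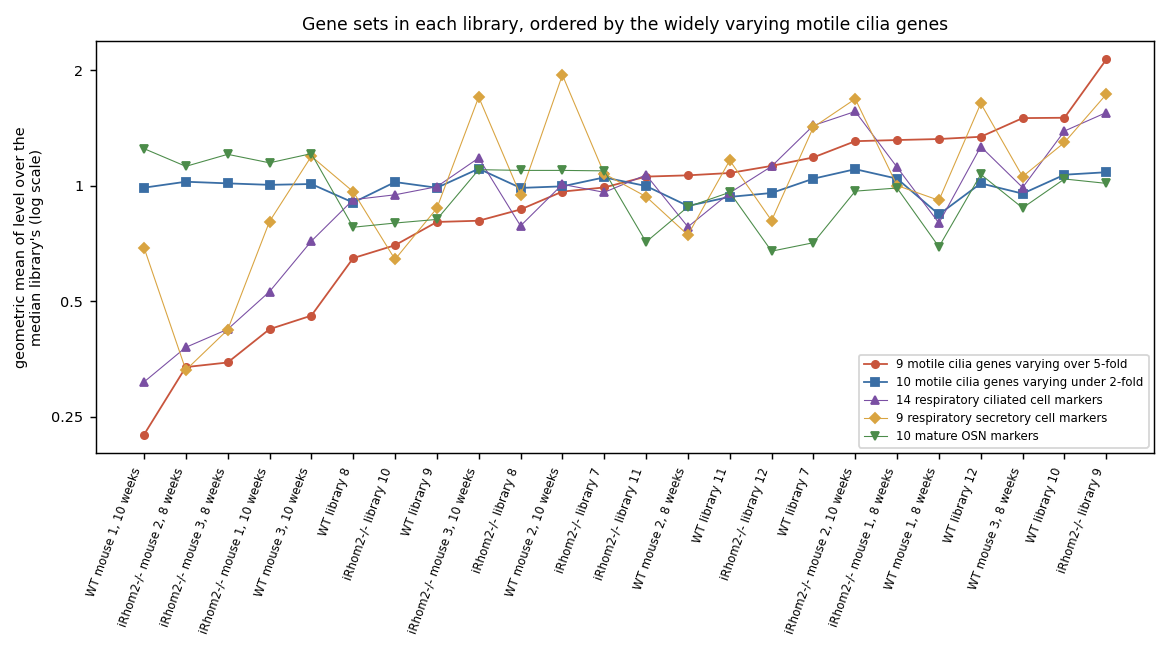
Libraries are ordered from left to right by the wide-ranging motile cilia genes, and the vertical axis (log scale) is the geometric mean of each gene's level over its median library. Lines join the values of 5 gene sets. The wide-ranging genes rise from 0.225 to 2.13 and the ciliated markers are below 1 in the 5 libraries on the left (0.308 to 0.717), where the secretory markers run from 0.331 to 1.19, while the steady genes stay between 0.841 and 1.11.

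At 8 weeks, 1 of the 45 genes passed an adjusted p of 0.1, against 1.95% of all genes tested, and 0 passed 0.05 (0.506%). The gene passed as higher in iRhom2-/- mice, as did 1.18% of all genes. This was Dnal4 (chr15:79761453-79777849), an axonemal dynein light chain. Dnal4 was at 35.7, 35.3 and 39.1 CPM in WT and at 42.1, 55.4 and 50.2 CPM in iRhom2-/- mice 1 to 3. All iRhom2-/- mice lay above all WT mice. The log2 fold change was 0.42 (SE 0.12, adjusted p = 0.0876 by Benjamini-Hochberg over all genes, edgeR). The call was lost on leaving out any 1 of the mice of 8 weeks (adjusted p 0.111 to 0.372) except iRhom2-/- mouse 1, without which it was 0.0590. Of the 45 genes, 10 had an unadjusted p under 0.05, against 14.5% of all genes. Of these, 6 were higher (7.87% of all genes) and 4 lower (6.68%).

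Several heavy chains differed widely among the iRhom2-/- mice of 8 weeks. Dnah5, the principal outer arm heavy chain, was at 64.5, 42.5 and 64.1 CPM in WT and at 59.0, 6.51 and 11.9 CPM in iRhom2-/- mice 1 to 3. Dnah6 was at 24.1, 18.2 and 25.8 CPM in WT and at 24.5, 3.33 and 3.39 CPM in iRhom2-/- mice. For both genes, iRhom2-/- mice 2 and 3 were far below WT while iRhom2-/- mouse 1 was among the WT values, so the groups overlapped. The log2 fold changes were -1.14 (SE 0.66, adjusted p = 0.450, edgeR) for Dnah5 and -1.13 (SE 0.66, adjusted p = 0.458, edgeR) for Dnah6. Without iRhom2-/- mouse 1, which leaves 2 iRhom2-/- mice, 5 of the 45 genes passed as lower in edgeR, against 1.15% of all genes in the same fit, namely Dnah5 (log2 -2.65, adjusted p = 0.0724), Dnah6 (-2.77, 0.0660), Dnah10 (-2.10, 0.0762), Dnah3 (-2.38, 0.0923) and Rsph10b (-1.86, 0.0794). With all 3 mice, 0 of the 45 genes passed as lower (0.766% of all genes did) in edgeR or DESeq2, and the estimates of Dnah10, Dnah3 and Rsph10b were -0.87, -1.11 and -1.05.

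Of the 15 Dnah genes tested at 8 weeks, 14 had a negative estimate, with a median log2 fold change of -0.66, against 0.01 for all genes. That median was the value of the antisense gene Dnah2os, which had only 1 to 21 counts in a library and is no heavy chain. Many of the heavy chains rose and fell together across libraries, so these estimates are not independent of one another. Dnah7c, an inner arm chain that shares 63.7% of its 31-base words with other genes, was at 4.72, 4.01 and 4.24 CPM in WT and at 3.55, 1.14 and 1.71 CPM in iRhom2-/- mice. These groups did not overlap, yet the log2 fold change of -1.02 (SE 0.45, adjusted p = 0.293, edgeR) did not pass. The outer arm chain Dnah11 did not share the low values of Dnah5. It was at 43.5, 54.9 and 64.1 CPM in WT and at 49.7, 41.4 and 43.7 CPM in iRhom2-/- mice, with a log2 fold change of -0.27.

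The Drc, Rsph and Tekt genes had mostly positive estimates at 8 weeks, without passing the test, while the medians were -0.02 for the Dnai and Dnal genes and 0.06 for the Dnaaf genes. The 3 Drc genes had a median of 0.30, the 7 Rsph genes tested 0.20 (5 above 0) and the 5 Tekt genes 0.32 (3 above 0). Drc1, a scaffold of the nexin-dynein regulatory complex, was at 50.2, 57.9 and 62.7 CPM in WT and at 74.4, 68.9 and 66.9 CPM in iRhom2-/- mice. Drc3, of the same complex, was at 44.3, 52.6 and 52.6 CPM and at 66.5, 58.8 and 60.2 CPM, with a log2 fold change of 0.31 (adjusted p = 0.176, edgeR). Neither gene overlapped between the genotypes. Rsph9 was at 37.9, 48.0 and 51.8 CPM in WT and at 56.5, 61.4 and 71.5 CPM in iRhom2-/- mice (log2 0.46, SE 0.15, adjusted p = 0.146 in edgeR and 0.0985 in DESeq2). Its partner in the spoke head, Rsph1, was at 55.1, 58.4 and 68.8 CPM and at 71.6, 64.1 and 74.5 CPM. Here iRhom2-/- mouse 2 was below WT mouse 3, so that Rsph1 overlapped and Rsph9 did not. Tekt1 was at 23.9, 25.5 and 27.9 CPM in WT and at 39.1, 29.3 and 32.0 CPM in iRhom2-/- mice (log2 0.38, adjusted p = 0.196, edgeR), and Tekt4 at 5.42, 6.07 and 5.72 CPM and at 8.63, 6.39 and 6.40 CPM. For both tektins all iRhom2-/- mice were above all WT mice.

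In all, 13 of the 45 genes did not overlap between genotypes at 8 weeks (25.7% of all genes tested did not). These were Dnal4, Drc1, Drc3, Tekt1, Tekt3, Tekt4, Rsph3a, Rsph9 and Rsph14 on the higher side (15.4% of all genes) and Dnah7c, Dnah8, Dnah12 and Dnai4 on the lower (10.4%). The share of the 45 genes was near that of all genes. Among the regulators, Foxj1 was at 110, 120 and 130 CPM in WT and at 148, 118 and 113 CPM in iRhom2-/- mice, which overlapped (log2 0.07). Mcidas, which starts the multiciliated cell programme, was near the lower limit, with 0.914, 1.35 and 0.463 CPM in WT and 0.539, 0.759 and 0.728 CPM in iRhom2-/- mice (log2 -0.43). The light chain Dnal1 was at 49.6, 63.7 and 68.5 CPM in WT and at 70.7, 63.8 and 62.9 CPM in iRhom2-/- mice, also with overlap. The assembly factors overlapped as well, with 27.4, 26.1 and 29.2 CPM against 29.8, 27.4 and 30.1 CPM for Dnaaf5 and 19.1, 17.9 and 17.5 CPM against 20.4, 18.7 and 19.6 CPM for Dnaaf2. Marker genes of other cells differed at 8 weeks too. The median log2 fold change was -0.48 for the 14 ciliated markers (8 below 0), -0.74 for the 9 secretory markers (8 below 0), 0.51 for the 10 mature OSN markers (9 above 0) and -1.13 for the 8 immune markers (8 below 0). Of these genes Rtp1, an OSN receptor transport protein (0.38, adjusted p = 0.0729, edgeR), and the T cell gene Cd3e (-3.26, adjusted p = 0.0914, edgeR) passed. Of all genes, 1.18% passed as higher and 0.766% as lower. DESeq2 called 4 OSN markers as higher (Ano2, Cnga2, Omp and Rtp1) and 3 immune markers as lower (Cd3e, Cd74 and Ptprc). It called 2.39% of all genes as higher and 2.65% as lower. By the summary per library, the immune markers were at 2.59 in WT mouse 1 of 8 weeks, against 1.025 and 1.11 in WT mice 2 and 3. In iRhom2-/- mice 1 to 3 they were at 0.853, 0.651 and 0.601. Cd3e was at 4.81, 0.547 and 0.682 CPM in WT and at 0.104, 0.337 and 0.182 CPM in iRhom2-/- mice. The immune differences thus lean on WT mouse 1. The part of the cells marked by these lists in the values of the cilia genes was not tested.

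**Figure D3:**
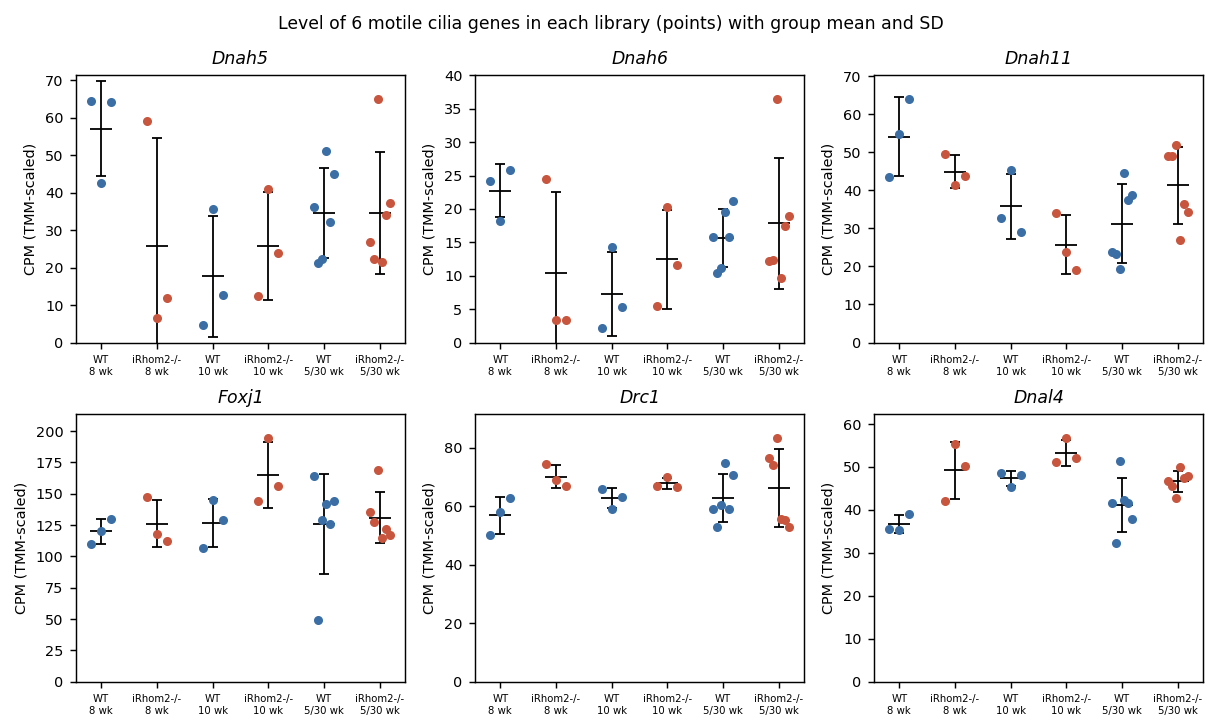
Points are the CPM of single libraries for Dnah5, Dnah6, Dnah11, Foxj1, Drc1 and Dnal4 in the 6 groups (WT in blue, iRhom2-/- in red), and bars give the group mean and SD, with the axis starting at 0 so that a bar reaching below it is cut there. In iRhom2-/- mice of 8 weeks Dnah5 splits into 59.0 CPM in mouse 1 and 6.51 and 11.9 CPM in the others, while Dnal4 of the same mice stays between 42.1 and 55.4 CPM.

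At 10 weeks, 0 of the 45 genes passed an adjusted p of 0.1 in edgeR, against 0.188% of all genes, and DESeq2 also called 0. An unadjusted p under 0.05 was reached by 2 of them, against 7.71% of all genes. Dnah8, a heavy chain best known from sperm, had the smallest p. It was at 4.37, 6.28 and 4.66 CPM in WT and at 3.44, 1.70 and 3.38 CPM in iRhom2-/- mice, without overlap (log2 -0.84, SE 0.30, adjusted p = 0.457, edgeR). On the higher side Tekt4 had the smallest p, with 7.10, 12.0 and 8.88 CPM in WT and 10.1, 16.4 and 12.5 CPM in iRhom2-/- mice (log2 0.48, SE 0.23, adjusted p = 0.638, edgeR). The groups of Tekt4 overlapped. Of the 45 genes, 7 did not overlap between genotypes (12.9% of all genes did not), namely Dnal4, Dnaaf1, Dnaaf4, Drc1, Drc7 and Tekt2 on the higher side (6.55% of all genes) and Dnah8 on the lower (6.39%).

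The low heavy chain values at 10 weeks were in both genotypes. Dnah5 was at 4.59, 35.7 and 12.6 CPM in WT and at 12.4, 40.9 and 23.9 CPM in iRhom2-/- mice (log2 0.54, SE 0.67). Dnah6 was at 2.22, 14.3 and 5.32 CPM and at 5.44, 20.2 and 11.7 CPM (log2 0.77). WT mouse 1 was lowest and iRhom2-/- mouse 2 highest for both genes, and the groups overlapped. Dnah11 again ran otherwise, with 32.8, 45.5 and 29.2 CPM in WT and 34.1, 23.9 and 19.02 CPM in iRhom2-/- mice. Of the 45 genes, 37 had a positive estimate at 10 weeks, with a median of 0.31, and the ciliated markers had a median of 0.75 (13 of 14 above 0). The median of the 15 Dnah genes was 0.35, and it was -0.01 without WT mouse 1 and 0.83 without WT mouse 2.

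The regulators had positive estimates at 10 weeks that did not pass. Foxj1 was at 107, 145 and 129 CPM in WT and at 144, 194 and 156 CPM in iRhom2-/- mice (log2 0.38). Mcidas was at 0.321, 0.317 and 0.508 CPM and at 0.807, 1.11 and 0.434 CPM (log2 1.02, SE 0.54). Both regulators overlapped between the genotypes, as did the spoke head genes. Rsph1 was at 84.3, 71.9 and 77.0 CPM in WT and at 67.6, 84.0 and 107 CPM in iRhom2-/- mice, and Rsph9 at 82.3, 55.8 and 77.6 CPM and at 58.3, 68.3 and 93.5 CPM. Drc1 was at 65.9, 59.0 and 63.3 CPM and at 67.0, 69.97 and 66.6 CPM, and Drc3 at 50.02, 55.7 and 55.8 CPM and at 53.9, 69.2 and 65.6 CPM. Dnal4 was at 48.5, 45.4 and 48.1 CPM in WT and at 51.1, 56.7 and 52.0 CPM in iRhom2-/- mice (log2 0.17, adjusted p = 0.793, edgeR). Drc1 and Dnal4 were higher in every iRhom2-/- mouse than in any WT mouse, as they had been at 8 weeks, and Dnah8 was lower at both ages. Drc1 and Dnal4 did not pass at 10 weeks, and Drc1 had not passed at 8 weeks either (log2 0.30, adjusted p = 0.365, edgeR). The share of all genes free of overlap at both ages was not counted. Tekt1, Dnal1, Dnaaf5 and Dnaaf2 overlapped at this age. Tekt1 was at 41.7, 37.7 and 40.3 CPM in WT and at 40.9, 48.8 and 54.5 CPM in iRhom2-/- mice. Dnal1 was at 45.6, 51.3 and 46.6 CPM and at 54.9, 43.5 and 47.2 CPM. Dnaaf5 was at 24.98, 32.4 and 29.5 CPM and at 31.2, 34.3 and 28.8 CPM, and Dnaaf2 at 13.998, 16.7 and 15.2 CPM and at 15.2, 19.3 and 17.4 CPM.

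At 5 or 30 weeks, with 6 libraries per genotype, 0 of the 45 genes passed in edgeR, against 0.843% of all genes. An unadjusted p under 0.05 was reached by 4 genes (13.1% of all genes), and no gene of the 45 was free of overlap between genotypes (1.53% of all genes were). Dnaaf5, an assembly factor, had the smallest p. Its lowest, median and highest values were 22.2, 24.4 and 27.3 CPM in WT and 25.9, 28.0 and 32.3 CPM in iRhom2-/- libraries. The upper WT and the lower iRhom2-/- libraries overlapped (log2 0.22, SE 0.07, adjusted p = 0.190, edgeR), and DESeq2 called the gene (adjusted p = 0.0433). The sperm heavy chain Dnah17 was near 1 CPM, from 0.317 to 1.16 CPM in WT and from 0.786 to 2.28 CPM in iRhom2-/- libraries (log2 0.77, SE 0.31, adjusted p = 0.301, edgeR). Rsph3a, of the spoke stalk, had a lowest, median and highest value of 37.4, 41.0 and 49.7 CPM in WT and 34.3, 38.1 and 42.2 CPM in iRhom2-/- libraries, with overlap (log2 -0.14, SE 0.07, adjusted p = 0.371, edgeR). It shares most of its sequence with Rsph3b (80.7% and 81.5% of 31-base words are shared), so the split of reads between these copies is uncertain.

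The heavy chains overlapped between genotypes at 5 or 30 weeks. Dnah5 had a lowest, median and highest value of 21.1, 34.2 and 51.1 CPM in WT and 21.5, 30.4 and 65.0 CPM in iRhom2-/- libraries, and Dnah6 of 10.4, 15.8 and 21.2 CPM and 9.66, 14.9 and 36.5 CPM. The highest value of both genes was in iRhom2-/- library 9, and the other libraries of the genotypes lay in the same range. Dnah11 was at 19.4, 30.7 and 44.7 CPM and 27.1, 42.8 and 52.0 CPM. Foxj1 was at 49.2, 136 and 164 CPM in WT and 115, 125 and 169 CPM in iRhom2-/- libraries, and Rsph1 at 37.7, 91.6 and 98.7 CPM and 70.9, 75.1 and 104 CPM, with WT library 8 lowest for both genes. Rsph9 was at 59.5, 69.98 and 74.1 CPM and 58.7, 63.7 and 66.9 CPM. Tekt1 was at 31.3, 36.8 and 42.7 CPM in WT and 31.7, 34.2 and 43.0 CPM in iRhom2-/- libraries, and Drc1 at 52.8, 59.8 and 74.6 CPM and 52.9, 64.8 and 83.2 CPM. All of these genes overlapped between genotypes. Drc3 was at 51.7, 55.8 and 67.6 CPM and 55.6, 59.3 and 66.5 CPM, and Dnal1 at 44.0, 53.4 and 59.5 CPM and 50.2, 58.9 and 66.0 CPM. Dnal4 was at 32.3, 41.6 and 51.4 CPM in WT and at 42.8, 47.1 and 49.9 CPM in iRhom2-/- libraries (log2 0.18, SE 0.08, adjusted p = 0.359, edgeR), with overlap. The median over the 45 genes was -0.01, the same as over all genes, and the summed level of the 48 genes was 1105 ± 169 CPM in WT and 1140 ± 168 CPM in iRhom2-/- libraries (SD, n = 6 each).

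**Figure D4:**
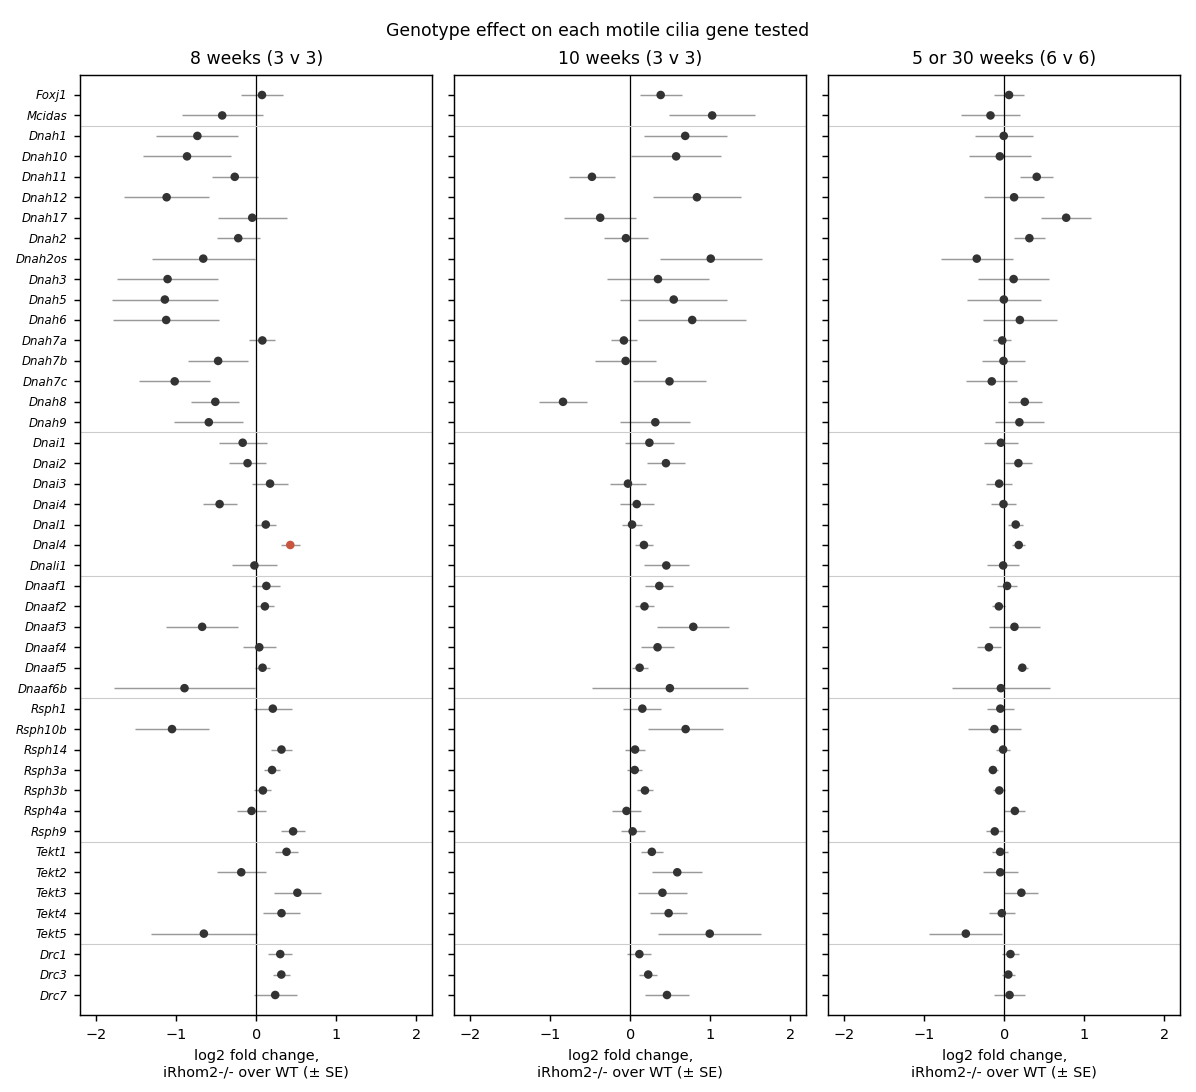
Points give the log2 fold change (iRhom2-/- against WT) of each of the 45 genes tested, by family, at 8 weeks, 10 weeks and 5 or 30 weeks, with bars of 1 SE. The single red point, Dnal4 at 8 weeks (0.42), is the one past an adjusted p of 0.1, and the heavy chains except Dnah7a lie left of 0 at 8 weeks but spread around it in the other panels.

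Over all ages, with age group as a term, 1 of the 45 genes passed an adjusted p of 0.1, against 1.97% of all genes tested, and 0 passed 0.05 (1.13%). As 1.12% of all genes did, Dnal4 passed as higher in iRhom2-/- libraries (log2 0.24, SE 0.06, 1.18-fold, adjusted p = 0.0511, edgeR). This held on leaving out each of the 24 libraries in turn (adjusted p 0.00825 to 0.0948), while the libraries of 8 and 10 weeks alone gave 0.163 and a fit without age group 0.204. Dnaaf5 (log2 0.16, adjusted p = 0.134, edgeR), Drc3 (0.16, adjusted p = 0.222) and Tekt3 (0.34, adjusted p = 0.338) had an unadjusted p under 0.05 without passing, so that 4 genes in all reached it (12.4% of all genes). Dnah8 had the smallest p on the lower side (log2 -0.21, SE 0.18, adjusted p = 0.698, edgeR). The median over the 45 genes was 0.04 (28 above 0), against 0.00 for all genes.

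The summed level of the 48 genes was 1060 ± 89.2 CPM in WT and 1056 ± 155 CPM in iRhom2-/- mice at 8 weeks, and 1017 ± 89.9 CPM and 1169 ± 142 CPM at 10 weeks (SD, n = 3 each). The difference was smaller than the SD of either group at 8 weeks and larger than both at 10 weeks, where the ranges of 940 to 1116 CPM in WT and 1017 to 1298 CPM in iRhom2-/- mice overlapped. The genotype effect at 8 weeks was also tested against that at 10 weeks, where age and core reference number differ together and cannot be told apart. Of the 45 genes, 0 passed an adjusted p of 0.1 in edgeR, against 0.0771% of all genes, and 4 had an unadjusted p under 0.05, against 11% of all genes (Rsph10b, Dnah12, Dnah7c and Dnaaf3, adjusted p 0.341 to 0.400). All 4 had a lower estimate at 8 weeks than at 10 weeks. DESeq2 called 0 of the 45 genes in this comparison.

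Among 43 other genes of the axoneme and its assembly, 1 passed in each of the 4 genotype tests, and it was the same gene. Of all genes tested, 1.95% passed at 8 weeks, 0.188% at 10 weeks, 0.843% at 5 or 30 weeks and 1.97% over all ages. Spag1, a dynein arm assembly factor (chr15:36178099-36235621), was higher in iRhom2-/- libraries at every age. It ranged from 9.21 to 13.5 CPM in the 12 WT libraries and from 14.8 to 24.7 CPM in the 12 iRhom2-/- libraries, without overlap. The log2 fold change was 1.03 at 8 weeks (SE 0.14, adjusted p = 0.00174, edgeR), 0.76 at 10 weeks (adjusted p = 0.0246), 0.60 at 5 or 30 weeks (adjusted p = 0.00458) and 0.75 over all ages (adjusted p = 4.7e-06). The call at 10 weeks was lost in a fit of those 6 libraries alone (adjusted p = 0.262) and without WT mouse 1 (0.109), WT mouse 3 (0.124) or iRhom2-/- mouse 2 (0.161). No other gene of that list passed in edgeR. DESeq2 called Ccdc65 as higher too at 8 weeks and over all ages, and Enkur at 8 weeks. It called 2.39% of all genes as higher at 8 weeks and 2.21% over all ages. The median of the list over all ages was 0.06 (31 of 43 above 0). The highest of the list were Cfap69 (mean 261 CPM), which is also a ciliary gene of OSNs, and Ccdc40 (135 CPM).

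Of 12 further regulators of ciliogenesis, 1 passed over all ages (1.97% of all genes) and 0 at any single age in edgeR. Of these, 2, 2 and 3 had an unadjusted p under 0.05 at 8 weeks, 10 weeks and 5 or 30 weeks. The shares of all genes were 14.5%, 7.71% and 13.1% at these ages and 12.4% over all ages. DESeq2 called Cdc20b as lower at 8 weeks (2.65% of all genes) and Rfx2 as higher at 5 or 30 weeks (1.81%). Rfx2 (chr17:56775897-56831013), which encodes an X-box binding factor, was at 15.3 to 23.4 CPM in WT and at 17.98 to 31.8 CPM in iRhom2-/- libraries, with overlap (log2 0.28, SE 0.05, adjusted p = 0.00707, edgeR). This call was lost in the libraries of 8 and 10 weeks alone (adjusted p = 0.220) and in a fit without age group (0.322). The highest of that list were Rfx3 (mean 83.9 CPM) and the cell cycle factor E2f4 (38.3 CPM). Its median was -0.30 at 8 weeks, 0.35 at 10 weeks and -0.01 over all ages. Of the respiratory ciliated markers, of which Mlf1 (mean 84.8 CPM) and Tppp3 (65.7 CPM) were highest, 0 of 14 passed in any of the 4 tests in edgeR. DESeq2 called 1700016K19Rik at 8 weeks (2.39% of all genes) and Fam183b over all ages (2.21%), both higher. At 8 weeks, 10 weeks, 5 or 30 weeks and over all ages, 3, 1, 0 and 1 ciliated markers had an unadjusted p under 0.05. Of the secretory markers, led by Bpifa1 and Muc5b (mean 576 CPM), 0 of 9 passed in edgeR. DESeq2 called Muc5ac as lower at 10 weeks (0.482% of all genes) and over all ages (1.75%). In the same order, 0, 2, 1 and 1 secretory markers had an unadjusted p under 0.05. For both lists the shares of all genes at that p are those given above. Of the 8 sustentacular markers 0 passed in either tool, and 0 had an unadjusted p under 0.05.

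Some inner arm heavy chains followed Dnah5 closely across libraries and others did not. Across the 24 libraries, in which all genes of a library share its depth and cell composition, Pearson's r of log2 CPM with Dnah5 was 0.979 for Dnah6, 0.952 for Dnah1, 0.946 for Dnah3, 0.936 for Dnah10, 0.901 for Dnah12, 0.881 for Dnah9 and 0.842 for Dnaaf3. It was also 0.805 for Rsph10b and 0.756 for Dnai2, and among inner arm chains 0.839 for Dnah7c, 0.653 for Dnah2 and -0.219 for Dnah7a. It was 0.304 for Foxj1, 0.307 for Dnah11, -0.03 for Drc1, -0.483 for Rsph9 and -0.515 for Dnal4. These values are a description. Among genes outside the 48, those most like the mean of the 45 genes over the 24 libraries were Ak7, an adenylate kinase of motile cilia (r = 0.969), Gm973 (0.959), Kndc1, Nek5, ENSMUSG00000038194, Cdhr4, Ccdc162, Anxa8, Iqca and Catip (0.937). Ak7 was in the list of other axoneme genes and Cdhr4 among the ciliated cell markers.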

How the data were processed

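RNA of the MOE was sequenced from 24 mice. The authors used STAR for alignment to GRCm38 and RSEM for quantification of genes, and the deposited table gives whole-number counts per gene without normalization. How the estimates were rounded, the versions and the annotation are not given in the sources used here, nor is whether counting used the strand that the directional kit keeps. The same deposited table holds the authors' own comparison of genotypes as log2 values (fold change and mean level), a test score, and p-value and FDR columns, and none of these was used. Of 45706 genes, 3926 had no symbol, and 45143 were matched by identifier to GENCODE M21 for positions and exon length. All 24 columns of counts were used, 12 of them matched to 1 mouse and 12 to a group of both ages (5 or 30 weeks).

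The counts entered edgeR 4.0.16 (with limma 3.58.1, R 4.3.3) after filterByExpr, TMM normalization and the quasi-likelihood test on 6 groups, with Benjamini-Hochberg adjustment over 20763 genes and a threshold of 0.1. The test over all ages had age group as a term. Folds are iRhom2-/- against WT. DESeq2 1.42.0 and other settings were alternatives, and the fits were tested on simulated data. Depth was 25333822 to 48660394 counts, and 0 counts leave room for up to 3. Replicates are separate mice, and 42 pairs within groups differed beyond sampling error (chi-square over its degrees of freedom, 12.1 or more), so none was counted as a duplicate.

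The 48 genes, the other lists and the motifs were chosen with earlier results of these data known. Given by value were the regulators, the 2 genes with the highest mean CPM of each family, the gene with the smallest p in each direction and test, Rhbdf2, Omp, Bpifa1, Reg3g, the 2 highest and the called genes of each list, and the 10 genes most alike. Other genes given with values were chosen after their values were seen. Dnah7a, Dnah7b, Dnah7c, Rsph3a, Rsph3b, Dnaaf2 and Dnaaf4 share 39.3 to 81.5% of 31-base words with other genes, so their counts are uncertain.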

Additional observations from a re-analysis of the deposited data

Results flagged for a closer look

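Values that lay far from the other libraries of their group were looked for in 106 combinations of a value and a group of 6 libraries, at 5 or 30 weeks, with the gap to the nearest library over the range of the group above 0.625. Chance gives this in about 1 of 20 groups drawn from a single population. Many of these genes rose and fell together and each group pools 2 ages, so that rate does not carry over to these combinations. In all, 12 were found, in 2 libraries. WT library 8 was lowest for Foxj1, with 49.2 CPM against 126 to 164 CPM in the other WT libraries, and for Rsph1, with 37.7 CPM against 82.6 to 98.7 CPM. Library 9 of iRhom2-/- mice was highest for the outer arm chains Dnah5 (65.0 CPM against 21.5 to 37.3 CPM in the others) and Dnah9 (58.6 against 18.9 to 30.3 CPM). It was also highest for the inner arm chains Dnah3 (21.2 against 5.87 to 10.4 CPM), Dnah6 (36.5 against 9.66 to 18.97 CPM), Dnah10 (21.8 against 6.60 to 12.1 CPM) and Dnah12 (12.1 against 4.57 to 6.49 CPM), for the assembly factor Dnaaf3 (18.6 against 6.60 to 9.85 CPM) and for Rsph10b (12.3 against 4.57 to 6.44 CPM). The summed level of the 48 genes in that library was 1463 CPM, against 1001 to 1172 CPM, and the level of the 9 wide-ranging genes over the median library was 2.13, against 0.700 to 1.13.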

How the results depend on the processing

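Alternatives left nearly all counts of the 45 genes as they were. At 8 weeks the number of genes higher in iRhom2-/- mice (1, Dnal4) became 0 with no filter on low counts, 0 with a replicate block and 0 at an adjusted p of 0.05. It was 2 in DESeq2 (Dnal4 and Rsph9) and 0 to 1 without each replicate. In males alone it stayed at 1, but the gene was Rsph9 (adjusted p = 0.0946, edgeR), and Dnal4 did not pass (0.132). The number lower (0) was 0 to 5 without each replicate, 5 being without iRhom2-/- mouse 1. At 5 or 30 weeks the number higher (0) was 1 in DESeq2 (Dnaaf5). Over all ages the number higher (1) was 2 in DESeq2 (Dnal4 and Dnaaf5), 0 in the libraries of 8 and 10 weeks alone, 0 without age group as a term, 0 at an adjusted p of 0.05, and 1 to 2 without each replicate, 2 without WT mouse 2 or iRhom2-/- mouse 3 of 10 weeks. Without each replicate, the log2 fold change of Foxj1 at 8 weeks ran from -0.0730 (without iRhom2-/- mouse 1) to 0.133, and the median of the Dnah genes at 10 weeks from -0.0130 (without WT mouse 1) to 0.828. The cause of these changes was not tested. Leaving a replicate out takes 1 library from a group of 3 or 6.

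Replicate numbers are shared between genotypes, but no label says that they pair mice. Deviations of same-numbered mice correlated at 0.117, 0.0333 and 0.00374 at 8 weeks and at 0.0108, 0.216 and 0.111 at 10 weeks. Those of differently numbered mice ran from -0.138 to 0.118 at 8 weeks and from -0.23 to 0.146 at 10 weeks. For want of a label the number was left out of the main fits. Whether same-numbered mice share a factor was not tested. With the number as a block at 8 and 10 weeks, 0 of the 45 genes passed at either age, and 16 and 12 had an unadjusted p under 0.05 (15.1% and 9.22% of all genes in the same fit). In the main fits these were 10 and 2 genes (14.5% and 7.71% of all genes). For Dnal4 at 8 weeks the block gave 0.126, males alone 0.132 and no filter 0.116 (adjusted p, edgeR). For Spag1 at 10 weeks the block gave 0.137 and males alone 0.150.

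Over all genes tested, the calls at 8 weeks (245 higher and 159 lower) were 497 and 550 in DESeq2, 626 and 336 in the 6 libraries alone, 252 and 284 with the block, 120 and 138 in males alone, 128 and 105 with no filter, and 74 and 69 on library totals. Those at 5 or 30 weeks (90 and 85) were 131 and 78 with RLE size factors, 54 and 39 on library totals and 375 and 230 in DESeq2. Those over all ages (233 and 177) were 459 and 364 in DESeq2, 66 and 40 in the libraries of 8 and 10 weeks alone, and 74 and 58 without age group. Those at 10 weeks (19 and 20) were 92 and 100 in DESeq2. Low levels limit Mcidas, Dnah17 and Tekt3, near 1 CPM, and the group of 5 or 30 weeks holds 2 ages that cannot be told apart.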

Other observations

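Dnal4 and Spag1, the cilia genes that passed over all ages beside Rfx2, both lie on chromosome 15, as does Dnah5 (chr15:28203752-28472052). That chromosome held 745 of the 20763 genes tested (3.59%), 20 of the 233 genes called higher over all ages (8.58%) and 22 of the 177 called lower (12.4%). Foxj1 (chr11:116330704-116335399) lies 262.8 kb from Rhbdf2 on chromosome 11, Dnah17 1394.7 kb and Dnai2 1840.3 kb, and none of these 3 genes passed in any genotype test. The part that position plays in these values was not tested.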
